A study of Caenorhabditis elegans with 40 samples.

Results

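The genes described here encode the proteases of the lysosome and of the gut lumen and the proton pump that acidifies these compartments in Caenorhabditis elegans. They were the 49 of 20956 genes in the deposited table whose symbol started with cpr-, cpl-, cpz-, asp- or vha-, or was unc-32 or nuc-1, a rule that itself uses no measured value but was set with earlier results of these data known. They comprised 27 proteases (17 aspartic proteases of the asp family, 7 cathepsin B genes of the cpr family, and 3 cathepsin L or Z genes), 21 genes of the proton pump, and the nuclease nuc-1. A mean normalised read count of at least 10 over the 40 libraries was required for testing. It was reached by 42 of these genes, among them 20 proteases, all 21 pump genes and nuc-1.

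As background, the vacuolar ATPase is a rotary pump with a cytosolic V1 sector, which hydrolyses ATP, and a membrane V0 sector, through which protons enter the lumen. In V1, subunits A and B (vha-13 and vha-12) form the catalytic head, subunits D and F (vha-14 and vha-9) the central stalk, and subunits C, E, G and H (vha-11, vha-8, vha-10, and vha-15 or vha-18) the outer stalks and the link to the membrane. In V0, the rotor consists of subunits c (vha-1, vha-2 and vha-3), c'' (vha-4) and d (vha-16) and turns against subunit a, which the worm encodes in the paralogs vha-5, vha-6, vha-7 and unc-32. The acid lumen allows aspartic proteases, relatives of cathepsins D and E, and cysteine cathepsins B, L and Z to digest proteins taken up by endocytosis or autophagy, and in the worm intestine some of these enzymes are also secreted to digest food. The surface of the lysosome is also where Rag GTPases, one of which is encoded by raga-1, activate the target of rapamycin complex in response to amino acids.

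RNA of whole worms was sequenced on day 1 of adulthood in 10 groups of 4 libraries. The genotypes were wild type N2, eat-2(ad1116), whose slow feeding serves as a model of dietary restriction, raga-1(ok386), clk-1(qm30), whose gene encodes a hydroxylase needed to make ubiquinone, and age-1(hx546), whose gene encodes the lipid kinase that acts downstream of the insulin receptor. From hatching, each genotype was fed bacteria with an empty vector or with a vector for RNA interference (RNAi) against repo-1, which encodes a spliceosome component, and the series asks how far the mutants' long life depends on such factors early in life. Each of the 4 libraries of a group belongs to another batch, per the labels, which do not say whether they are separate cultures. The p-values thus reflect only how these samples scatter, which may be technical.

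The libraries held 7.43 to 40.8 M recovered reads. The repo-1 transcript, the target of the RNAi, fell under RNAi to between 38% of its empty vector level in wild type and 52.7% in eat-2, so the RNAi labels held in all 5 genotypes. The raga-1 transcript stood at 38.6 normalised counts in raga-1 against 1514 in wild type and the clk-1 transcript at 77.5 against 227, while eat-2, under the limit for testing, and age-1 gave no such check. Some libraries stood apart. The raga-1 library of batch 1 on empty vector had a mean correlation of 0.957 with the others of its group, whose own means were 0.973 to 0.977. The clk-1 libraries under RNAi parted by batch, whose summed sperm markers were 294, 236, 1176 and 1088 from batch 1 to batch 4, and the name of the raga-1 library of batch 3 under RNAi carries another date than the rest. Results that rest on these libraries are given with and without them. Levels are normalised read counts, listed for batches 1 to 4 in that order or given as the mean ± standard deviation (SD, n = 4). Differences are log2 fold changes on the log2(value + 1) scale with their standard error (SE) and a p-value adjusted by the Benjamini-Hochberg method from 1 limma fit over all tested genes, called under 0.05. The comparisons share libraries, above all the 4 wild type libraries on empty vector, and are therefore set side by side and not correlated. Under the alternatives, leaving out a batch means leaving out that library of each group.

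Compared per kilobase of exon, the proteases spanned a far wider range of levels than the pump subunits in wild type on empty vector. The aspartic protease asp-1, a gut enzyme, led with 25984 normalised counts per kilobase, followed by the cathepsin L gene cpl-1, which is needed in embryos to process yolk, at 20409, asp-6 at 15229, the cathepsin B gene cpr-6 at 13166 and asp-3 at 9694. At the low end of the tested proteases stood cpr-3 at 115, asp-17 at 58.7 and asp-12 at 56.7. The pump genes lay between 649 for vha-7 and 7257 for vha-2. Subunits A and B of the catalytic head, vha-13 and vha-12, stood close together at 4676 and 3886. Among the paralogs of subunit a, the intestinal vha-6 led at 1592, ahead of unc-32 at 817, a paralog known from neurons, vha-5 at 656, known from the excretory canal and epidermis, and vha-7, known from the epidermis and uterus. The genes vha-2 and vha-3 encode near-identical proteins, so reads may have been split between them and their single levels are uncertain.

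The remaining 7 genes, cpr-2, asp-9, asp-7, asp-16, asp-15, asp-18 and asp-19, were near the floor in every group. Summed over all 40 libraries they had 42, 48, 39, 26, 13, 5 and 1 reads, found in 19, 19, 14, 14, 9, 2 and 1 libraries. All 7 are proteases, while no pump gene fell under the limit. asp-7 had reads in all 8 clk-1 libraries (2 to 6 reads each, 31 in sum) and in 6 of the other 32 (at most 2 each, 8 in sum). Its values were 0, 0.843, 0 and 0 in wild type and 2.28, 5.21, 5.16 and 6.41 in clk-1 on empty vector, and 5.04, 2.47, 2.32 and 2.46 in clk-1 under RNAi. In the fit without a filter it was higher in clk-1 than in wild type on empty vector (2.24 ± 0.303, adjusted p = 1.38e-07), on a scale where 1 read and the pseudocount weigh heavily. That fit called 5 of 98 values of the 7 genes in all, the others being cpr-2 in clk-1 (1.94 ± 0.466, adjusted p = 0.00085) and asp-9 in eat-2 (1.40 ± 0.528, adjusted p = 0.0327) on empty vector, and asp-18 under RNAi in raga-1 and its interaction, where 2 libraries held all its reads (0.89 ± 0.234, adjusted p = 0.00159 and 0.89 ± 0.331, adjusted p = 0.0331).

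Across the 10 group means, proteases had wider ranges than pump genes. The highest group mean was a median of 3.57 times the lowest over the 20 tested proteases (range 2.30 to 42.2), against 1.49 times over the 21 pump genes (1.29 to 2.62) and 2.07 times over all 12327 genes tested (computed on means plus 1). The widest ranges belonged to asp-14 (42.2-fold), asp-8 (19.9-fold), asp-17 (19.8-fold) and asp-12 (12.2-fold), all aspartic proteases of low or moderate level. Of the pump genes, 16 of 21 (76.2%, against 27.7% of all tested genes) had their highest mean in raga-1 under RNAi, as did 7 of 20 proteases (35%), and another 9 proteases (45%, against 9.69% of all tested genes) peaked in clk-1 under RNAi, and the only pump gene to do so was vha-6. The share of all recovered reads that fell on proteases went from 0.826% ± 0.0487 (SD) in wild type on empty vector to 1.37% ± 0.0516 in clk-1, 1.23% ± 0.0171 in eat-2 and 0.92% ± 0.029 in raga-1 on the same vector, and was 1.67% ± 0.18 in clk-1 under RNAi. Pump genes took 0.409% ± 0.0037 in wild type on empty vector and group means of 0.38 to 0.489% in all groups. On empty vector their share was 0.433% ± 0.00354 in clk-1 and 0.46% ± 0.00466 in eat-2, above wild type in every library. By normalised counts, given below, the pump medians against wild type were -0.12 in clk-1 and -0.01 in eat-2. A share of all reads and counts scaled by a factor per library thus differed here, for protease shares as for pump shares. In batch 1 on empty vector, 1 read stood for 0.861 normalised counts in wild type (21.6 M reads). In clk-1 it stood for 0.76 (21 M reads). Why these factors differed was not tested.

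**Figure D1:**
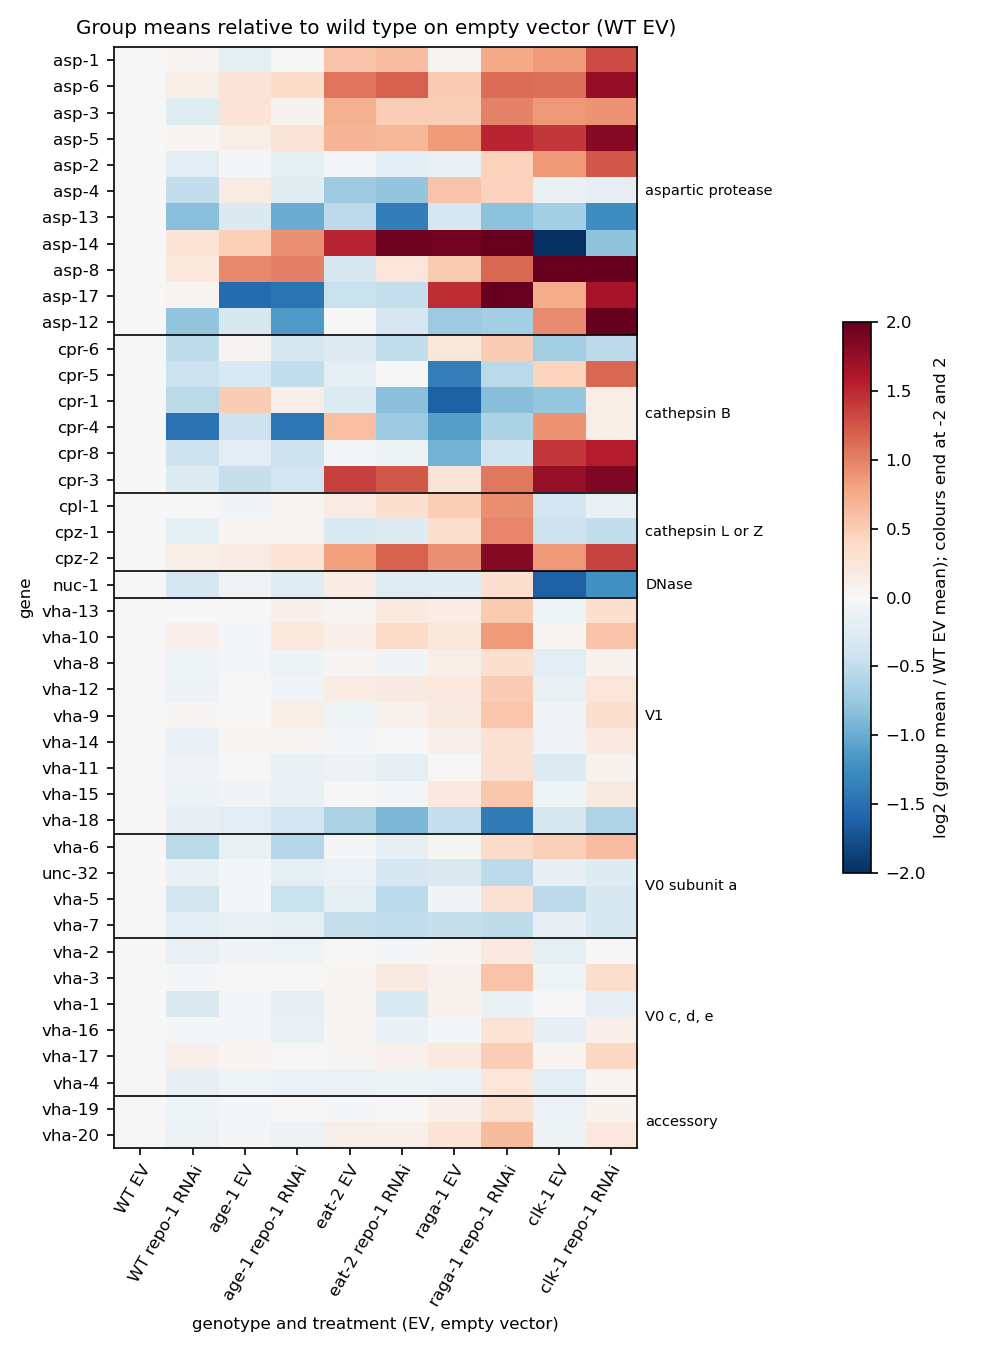
Heat map of the 42 tested genes (rows, grouped by role) over the 10 groups (columns); colour is log2 of the group mean over the mean in wild type on empty vector, and colours end at -2 and 2. Protease rows hold the strongest colours, such as asp-8 in both clk-1 columns and asp-14 in clk-1 on empty vector, while most pump rows are pale except in the raga-1 RNAi column.

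In wild type, repo-1 RNAi lowered proteases and pump genes and raised none. Of 20 tested proteases 9 fell, and of 21 pump genes 8 fell, where 23% of all tested genes were called (10.1% higher and 12.9% lower). The median log2 fold change was -0.23 over the proteases, -0.10 over the pump genes and -0.02 over all tested genes. The protease median was -0.11, -0.31, -0.17 and -0.26 in batches 1 to 4, and the pump median -0.08, -0.11, -0.07 and -0.09. Of 15 intestine markers, 4 fell and 1 rose, with a summed level of 17688 to 19244 on empty vector and 15950.1 to 17135 under RNAi and no marker at 0. The sperm list had 4 of 6 tested genes higher (median 1.45, sums 71.1 to 142 against 233 to 339). In every comparison its sums run over 10 genes, of which only 6 were tested. The limit on the mean over all libraries could favour sperm genes that were high under RNAi. Lists not named here had smaller shares of calls, and in the later comparisons not every list with calls is named. The part of these markers in the falls was not tested, and in whole animals fewer cells of a type cannot be told apart from less RNA per cell. The count of falling proteases was 5 without batch 2. Pump calls numbered 4 without batch 1, 5 without batch 2, 3 without batch 4, 5 by edgeR on recovered reads and 5 without the filter on low values. They were 5 lower and 1 higher after quantile normalization.

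Among the families, cathepsin B genes had the lowest median, with 5 of 6 tested lower and a median of -0.47. The largest fall was in cpr-4 (WBGene00000784, chromosome V, 6614674 to 6615851, build WBcel235 as for every position here), which encodes a secreted cathepsin B. Its counts were 5147, 5465, 5721 and 4904 in batches 1 to 4 on empty vector and 1970.3, 1811, 1806 and 1939 under RNAi. All 4 RNAi libraries lay far below all 4 controls, at 35.4% of their mean (log2 fold change -1.49 ± 0.134, adjusted p = 3.44e-10). For cpr-1, a gut cysteine protease, the libraries read 4797, 8355, 4731 and 7638 on empty vector and 3823, 4773, 3868 and 5033 under RNAi. Control libraries 2 and 4 were high and 1 and 3 low, so the groups overlapped. The fall in cpr-1 was -0.51 ± 0.17 (adjusted p = 0.0273), and without batch 2 or 4 it was -0.41 and -0.48 and not called (adjusted p = 0.172 and 0.122, against 0.0126 to 0.172 over the 14 alternatives). For cpr-5 the counts were 6968, 7988, 7523 and 7159.8 against 5707, 5265, 5388 and 5610.2, without overlap (log2 fold change -0.43 ± 0.128, adjusted p = 0.013), and without batch 2 or 3 it was -0.37 and -0.41 and not called (adjusted p = 0.0877 and 0.0727, against 0.000248 to 0.0877 over the 14 alternatives). The other falls of this family were cpr-6 at -0.50 ± 0.0518 and cpr-8 at -0.41 ± 0.107, while cpr-3 stood at -0.26 and was not called (adjusted p = 0.392).

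Among the aspartic proteases 4 of 11 fell and the family's median was 0.04. asp-13 (WBGene00017881, chromosome V, 8641602 to 8643193), a predicted aspartic protease, read 2464, 1987, 2503 and 1929.8 on empty vector and 1253, 1253, 1229 and 1250.2 under RNAi. The RNAi libraries formed a narrow band below every control, 56.1% of the control mean (log2 fold change -0.82 ± 0.102, adjusted p = 2.19e-07). The cathepsin D gene asp-4, which takes part in necrotic cell death of neurons in this worm, read 5953, 5674, 5905 and 6063 on empty vector and 4124, 4209, 3966 and 4478 under RNAi. Here too all 4 RNAi libraries lay below the controls (log2 fold change -0.49 ± 0.0495, adjusted p = 3.21e-09). Smaller falls were called in asp-2 (-0.23 ± 0.0631) and asp-3 (-0.24 ± 0.073), another cathepsin D gene of necrotic death. The abundant asp-1 read 28479.6, 34626, 29118 and 31566 on empty vector and 33255, 31099, 31183 and 30996 under RNAi, with overlapping groups and a difference of 0.04 ± 0.0773 (adjusted p = 0.783). None of the 3 cathepsin L and Z genes was called, and their values ran from -0.19 in cpz-1 to 0.12 in cpz-2.

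In eat-2 and age-1 the same RNAi gave calls in both directions and medians near 0. In eat-2, 4 proteases rose and 6 fell, and 3 pump genes rose and 4 fell, against 37.5% of all tested genes called (16.2% higher, 21.4% lower). The protease median was -0.06 and the pump median -0.02, with -0.03 over all tested genes. Intestine markers rose in 1 of 15 and fell in 4 in eat-2 and rose in 1 of 15 and fell in 5 in age-1, with summed levels of 22194 to 22984 and 23752 to 26229.6 in eat-2 and 16020.3 to 19050.2 and 16601 to 18237 in age-1. In eat-2, the excretory canal list had 4 of 7 lower (median -0.36, sums 2893 to 2960.5 against 2325 to 2591). The epidermis list had 1 of 6 higher and 3 lower (median -0.01, sums 22073 to 22342 against 23001 to 25390.1). The oocyte and germline list had 2 of 16 higher and 5 lower (median -0.04, sums 182796 to 189185 against 178886 to 180569). The neuron list had 1 of 11 higher and 3 lower (median -0.21, sums 5887 to 6449.7 against 6154 to 6423). The sperm list had 4 of 6 higher (median 1.33, sums 68.4 to 211 against 252 to 379). The body wall muscle list had 4 of 7 higher and 1 lower (median 0.19, sums 110201 to 118331 against 120707 to 131848). In age-1, the sperm list had 3 of 6 higher (median 1.46, sums 71.9 to 146 against 185 to 447). The body wall muscle list had 4 of 7 higher (median 0.18, sums 118881 to 137930.0 against 123155 to 152952). The part of these markers was not tested. Quantile normalization gave 3 higher and 7 lower pump genes, edgeR 2 and 8, and the pump count was 4 without batch 3. In age-1, 1 protease rose and 4 fell, with 2 pump genes higher and 5 lower, against 20.9% of all tested genes (10.6% higher, 10.2% lower). Medians in age-1 were -0.08 for proteases and -0.05 for pump genes. Pump calls in age-1 fell to 2 without batch 2 and to 3 without batch 3 or 4.

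cpr-4 fell in both mutants. In eat-2 its counts were 8222, 8622, 7289 and 7969 on empty vector and 3133, 3324, 2760.2 and 3594 under RNAi, and in age-1 3978, 3811, 4466 and 3743 and 2676, 2258, 1446 and 1387. Controls lay above RNAi libraries without overlap in both genotypes, and the spread was widest in age-1 under RNAi, where batches 3 and 4 were lowest. The change was -1.1 ± 0.134 in age-1 (adjusted p = 3.07e-07), beside -1.33 ± 0.134 in eat-2 (adjusted p = 1.21e-09). asp-13 read 1514, 1301, 1551 and 1822 in eat-2 on empty vector and 914, 750.3, 869 and 864 under RNAi. In age-1 it read 1727, 1537, 1918 and 2104 and 1169, 1059, 1067 and 1151. Again no RNAi library reached a control (-0.86 ± 0.102 and -0.70 ± 0.102, adjusted p = 3.63e-08 and 5.75e-06).

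A rise in eat-2 under RNAi was called for asp-8, a predicted aspartic protease, with 196, 166, 192 and 189.8 on empty vector and 273, 281, 248 and 290.3 under RNAi (log2 fold change 0.55 ± 0.11, adjusted p = 0.000154). All 4 RNAi libraries were above the controls. asp-14 rose as well, from 1441, 1347, 1624 and 1454 to 1945, 1729, 2162 and 1985 in batches 1 to 4 (log2 fold change 0.41 ± 0.114, adjusted p = 0.00429), again without overlap, and the others that rose were cpz-2 (0.35 ± 0.0699) and cpl-1 (0.16 ± 0.0626). The further falls in eat-2 were in cpr-1 (-0.57 ± 0.17), cpr-6 (-0.24 ± 0.0518), asp-2 (-0.20 ± 0.0631) and asp-3 (-0.22 ± 0.073). In age-1, asp-4 went from 6691, 6676, 6148 and 6889 to 5096, 5164, 4742 and 4855, with no overlap (log2 fold change -0.41 ± 0.0495, adjusted p = 2.32e-07), and cpr-6 fell by 0.40 on the log2 scale. The single protease that rose in age-1 was asp-14, from 688, 699.5, 784 and 652 to 713, 805, 1182 and 1140.3, where batches 3 and 4 under RNAi were high and the groups overlapped (log2 fold change 0.41 ± 0.114, adjusted p = 0.00888). For asp-14 in age-1, without batch 3 or 4 it was 0.35 and 0.28 and not called (adjusted p = 0.0638 and 0.117, against 2.03e-06 to 0.117 over the 14 alternatives).

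In raga-1 most of these genes rose. Under repo-1 RNAi 17 of 20 proteases rose and 2 fell, and 17 of 21 pump genes rose and 3 fell, where 71.1% of all tested genes were called (38.2% higher and 33% lower). The medians were 0.61 for proteases and 0.30 for pump genes. The median of all tested genes was itself 0.10 as deposited and -0.07 after quantile normalization, so changes here are to be read relative to it. After quantile normalization 17 proteases and 17 pump genes were higher and 1 and 1 lower. By batch the protease median was 0.66, 0.68, 0.52 and 0.61 and the pump median 0.36, 0.28, 0.26 and 0.23. Without the empty vector library of batch 1, 17 proteases rose and 1 fell, and without the RNAi library of the other date 17 rose and 1 fell. The pump counts without them were 17 and 3, and 17 and 3.

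Markers of several tissues moved in the same comparison. Intestine markers rose in 11 of 15 and fell in none, with a median of 0.45 and a summed level of 15969.8 to 20121 on empty vector and 25289 to 27352 under RNAi. Excretory canal markers rose in 5 of 7 and fell in 1, with summed levels of 2179 to 2439 and 2721 to 2921. Oocyte and germline markers fell in 15 of 16 and rose in none, with a median of -0.70 and sums of 206064 to 232303 and 115724 to 128735. Epidermis markers rose in 4 of 6 (sums 20406 to 27071 and 38419 to 39125), body wall muscle markers in 7 of 7 (sums 132349 to 156405 and 244190.0 to 256337), neuron markers in 10 of 11 (sums 5943 to 11995 and 9357 to 10603), coelomocyte markers in 2 of 3 (sums 136 to 161 and 219.6 to 254) and sperm markers in 6 of 6 (sums 96 to 241 and 1141 to 1365), and 1 epidermis marker fell. The neuron sum of 11995 was that of batch 1 on empty vector, where the marker unc-31 alone read 5695. In batches 2 to 4 on empty vector the neuron sums were 5943 to 5983. The markers at 0 throughout a group were msd-3 on empty vector and spe-38 under RNAi, both of sperm, and the part of tissue makeup in the changes of the proteases and the pump was not tested.

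All 6 cathepsin B genes rose, with a median of 0.67, and all 3 cathepsin L and Z genes rose, with a median of 0.62. cpr-4, which fell elsewhere, read 2897, 2270.5, 2354 and 2349.7 in raga-1 on empty vector and 3692, 3106, 3138 and 3719.8 under RNAi. The RNAi libraries all lay above the controls, of which batch 1 was highest (log2 fold change 0.47 ± 0.134, adjusted p = 0.00242). For cpr-1 the counts were 2579, 2210.2, 1682 and 1774 and 4559.7, 3422, 2619 and 3584, highest in batch 1 of both groups and without overlap, though the lowest RNAi library was close to the highest control (log2 fold change 0.78 ± 0.17, adjusted p = 0.000137). cpr-5 read 2878, 2556, 3241 and 2821 on empty vector and 5132, 4557, 5010.1 and 5805 under RNAi, without overlap (log2 fold change 0.83 ± 0.128, adjusted p = 6.7e-07). cpr-3 read 115, 129.9, 294 and 213 and 329, 293, 424 and 260.0; the control of batch 3 was high and lay among the RNAi libraries, while the other controls were below them all (log2 fold change 0.87 ± 0.205, adjusted p = 0.000314). The cathepsin Z gene cpz-2 read 931, 996, 1112 and 1109 and 1987, 1884, 1968 and 2017, without overlap and with little spread (log2 fold change 0.92 ± 0.0699, adjusted p = 8.49e-14).

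Of the 11 aspartic proteases 8 rose and 2 fell in raga-1. asp-17 (WBGene00012683, chromosome V, 19035723 to 19037322) had the largest rise, with 229, 171, 204 and 183 on empty vector and 657, 444, 438 and 403 under RNAi. The RNAi libraries all lay well above the controls, and that of batch 1 was the highest (2.43-fold, log2 fold change 1.28 ± 0.187, adjusted p = 2.76e-07). asp-14 read 2078, 1837, 1814 and 2023 and 3905, 3585, 3643 and 3150.2, again apart (log2 fold change 0.88 ± 0.114, adjusted p = 2.42e-08). The abundant asp-1 read 32246, 30779, 34604 and 30634 and 54074, 49918, 55520.4 and 49399, with every RNAi library above every control (log2 fold change 0.70 ± 0.0773, adjusted p = 7.35e-10). The falls were in asp-13, with 1656, 1787, 1781 and 1777 on empty vector and 1280.0, 1383, 1163 and 1188 under RNAi (log2 fold change -0.48 ± 0.102, adjusted p = 8.59e-05), and in asp-4. For asp-4, counts of 9408, 8532, 8539.6 and 8586 and 8505, 8024, 7629 and 8171 did not overlap, but the fall was small (log2 fold change -0.12 ± 0.0495, adjusted p = 0.0345), and it passed under 7 of 14 alternatives. For asp-4 in raga-1, without batch 1, 2 or 3 or without the raga-1 RNAi library of batch 3 or without the raga-1 empty vector library of batch 1 it was -0.13 to -0.08 and not called (adjusted p = 0.0563 to 0.156, against 0.00267 to 0.274 over the 14 alternatives).

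In clk-1 repo-1 RNAi also raised most of these genes. In all, 13 proteases rose and 2 fell, and 16 pump genes rose and 2 fell, against 46.3% of all tested genes called (23.8% higher, 22.5% lower). The medians were 0.39 and 0.27, with 0.00 over all tested genes. With the RNAi libraries of batches 1 and 2 alone, 12 proteases rose and 3 fell with a median of 0.27, and with those of batches 3 and 4 alone 14 rose and 2 fell with a median of 0.48. Pump genes had 14 rises and 1 fall in the first case and 17 and 4 in the second. By batch the protease median was 0.31, 0.35, 0.54 and 0.41 and the pump median 0.23, 0.25, 0.38 and 0.28. Intestine markers rose in 4 of 15 and fell in 2, with summed levels of 13119 to 16027 on empty vector and 16214 to 23221 under RNAi, of which batches 3 and 4 held the higher values. The excretory canal list had 2 of 7 higher and 2 lower (median 0.07, sums 2435 to 2598 against 2376 to 2543). The epidermis list had 3 of 6 higher and 2 lower (median 0.23, sums 17269.6 to 19295 against 26992 to 31377). The oocyte and germline list had 5 of 16 higher and 5 lower (median -0.06, sums 185370.0 to 203609 against 156700.0 to 167039). The sperm list had 6 of 6 higher (median 3.88, sums 51.6 to 64.1 against 236 to 1176). The neuron list had 7 of 11 higher (median 0.38, sums 6031 to 6255 against 7494 to 8742). The body wall muscle list had 6 of 7 higher (median 0.62, sums 74504 to 84262 against 111732 to 127600.0). Their part was not tested.

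The largest rise in clk-1 was in asp-14 (WBGene00019619, chromosome X, 6444185 to 6446664), from the lowest level of any group. It read 95.8, 76, 75.6 and 91 on empty vector and 301, 278, 277 and 306 under RNAi. Every RNAi library lay well above every control (3.42-fold, log2 fold change 1.77 ± 0.114, adjusted p = 9.81e-15). asp-12 read 138, 152, 165 and 154 and 384, 444, 400.4 and 533, also apart (log2 fold change 1.52 ± 0.337, adjusted p = 0.000349). asp-8, already high in this mutant, read 1567, 1716, 2067 and 2484 and 3037, 3409.6, 4275 and 4097, with batches 3 and 4 highest in both groups and no overlap (log2 fold change 0.93 ± 0.11, adjusted p = 1.55e-08). asp-1 reached its own highest group level here, with 51779.8, 54144, 54531 and 62209.9 on empty vector and 68479, 69002, 83873 and 83572 under RNAi (log2 fold change 0.45 ± 0.0773, adjusted p = 1.1e-05). Its RNAi libraries lay above the controls and were higher in batches 3 and 4. asp-17 read 146, 118, 96.2 and 118 and 187, 206, 273 and 227, apart as well (log2 fold change 0.90 ± 0.187, adjusted p = 0.000163).

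In the cathepsin B family of clk-1, 3 of 6 genes rose and 1 fell. cpr-1 read 3898, 3608, 3682 and 3820.4 on empty vector and 6026, 5761, 8063 and 8224 under RNAi, and cpr-5 9314, 9792, 9949 and 11433 and 14176, 13930.2, 19313 and 18251. In both, the RNAi libraries lay above the controls and batches 3 and 4 were the highest (0.88 ± 0.17 and 0.69 ± 0.128, adjusted p = 5.47e-05 and 3.79e-05). cpr-4 went the other way, with 8842, 9081, 9991 and 11771 on empty vector and 4981, 4948, 6706 and 6388 under RNAi. Every RNAi library was below every control (log2 fold change -0.79 ± 0.134, adjusted p = 9.55e-06). asp-13 was the other protease to fall, from 1377, 1303, 1411 and 1435 to 987, 1181, 812 and 775, with batches 3 and 4 lowest under RNAi (log2 fold change -0.58 ± 0.102, adjusted p = 1.71e-05). asp-13 was thus called lower in all 5 genotypes, the only protease of which that was true, and none was called higher in all 5. Over the 5 genotypes 7 of 20 proteases were called in both directions, 11 were called higher in at least 1 genotype and lower in none, and 2, asp-13 and asp-4, were called lower and never higher.

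**Figure D2:**
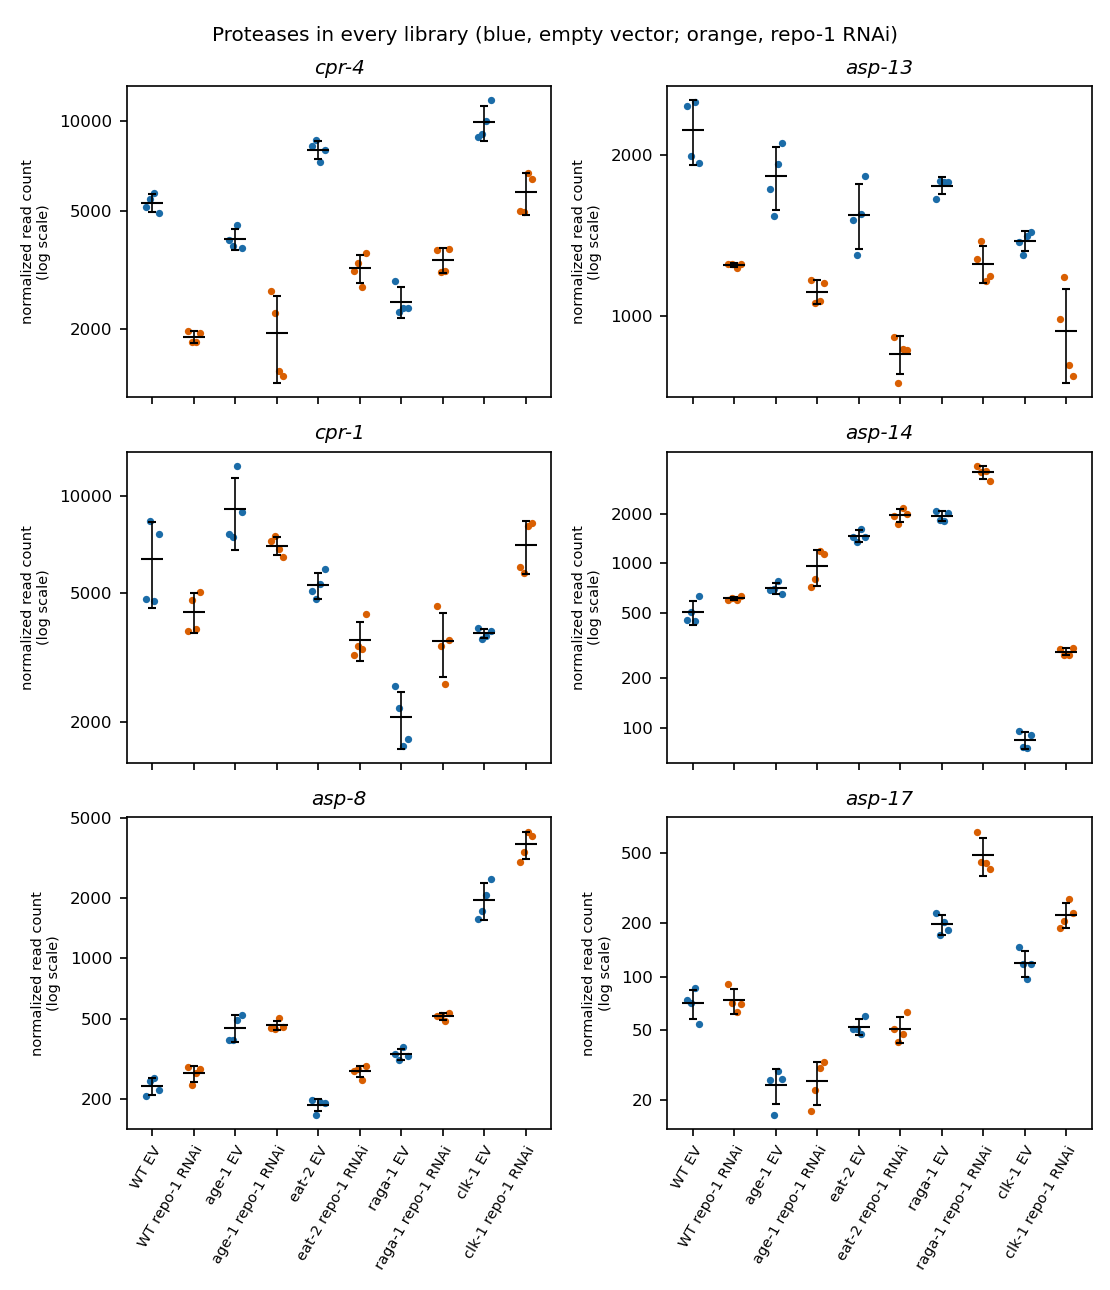
Normalised read counts of 6 proteases in each library (points, log axis) by genotype, blue for empty vector and orange for repo-1 RNAi, with the group mean and SD. cpr-4 is lower under RNAi in every genotype but raga-1, asp-13 is lower in all 5, and asp-14 and asp-8 show the widest gaps between genotypes.

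Within the pump, the subunit a paralogs had the lowest median under RNAi in wild type (-0.30), and all 4 fell. vha-6 (WBGene00006915, chromosome II, 11435210 to 11438452), the paralog of the apical membrane of the intestine, read 4235, 4411, 4042 and 4505 on empty vector and 2895, 2912, 2903 and 3074 under RNAi. All 4 RNAi libraries lay below the controls, at 68.5% of their mean (log2 fold change -0.54 ± 0.0636, adjusted p = 6.9e-08). vha-5 read 2043, 1866, 1953 and 1921 and 1493, 1439, 1563 and 1521, likewise apart (log2 fold change -0.37 ± 0.0631, adjusted p = 3.94e-05). vha-7 read 2743, 2328, 2119.6 and 2931 and 2259, 2162, 2069 and 2123, where the controls of batches 1 and 4 were high and the groups overlapped (log2 fold change -0.22 ± 0.0735, adjusted p = 0.026), and without batch 1 or 4 it was -0.20 and -0.14 and not called (adjusted p = 0.111 and 0.224, against 0.00507 to 0.224 over the 14 alternatives). For unc-32 the counts were 2898, 2988, 2815 and 3146 and 2605, 2754, 2785 and 2718, without overlap but with a small difference (log2 fold change -0.12 ± 0.0459, adjusted p = 0.0461), and without batch 1, 2, 3 or 4 it was -0.16 to -0.10 and not called (adjusted p = 0.0595 to 0.234, against 0.0117 to 0.234 over the 14 alternatives).

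In the mutants the paralogs took different directions. vha-6 fell in age-1, from 3782, 3539, 4571 and 3569 to 3169.8, 2902, 2915 and 2638 (log2 fold change -0.41 ± 0.0636, adjusted p = 1.97e-05), and rose in raga-1, from 4057, 4558, 4627 and 4182 to 5387, 5939, 5518 and 5276 (log2 fold change 0.34 ± 0.0636, adjusted p = 1.33e-05), in both cases without overlap. In eat-2 it read 4194, 4350.2, 4367 and 4007 and 3692, 3745, 3983 and 3774, without overlap but not called (-0.15 ± 0.0636, adjusted p = 0.0528). In clk-1 the counts of 5901, 6252, 5877 and 5979 and 5905, 6216, 7262 and 6867 overlapped and no change was called (0.12 ± 0.0636, adjusted p = 0.109).

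vha-5 fell in eat-2, from 1758, 1589, 1717 and 1724 to 1400.0, 1283, 1320.3 and 1346, and in age-1, from 1871, 1735, 2063 and 1886 to 1396, 1339, 1412 and 1583, with no overlap in either (-0.34 ± 0.0631 and -0.40 ± 0.0631, adjusted p = 5.26e-05 and 2.34e-05). It rose in raga-1, from 1640.5, 2068, 1879.8 and 1870.4 to 2331, 2708, 2351 and 2187, also without overlap (log2 fold change 0.36 ± 0.0631, adjusted p = 5.98e-06). In clk-1 it read 1427, 1389, 1325 and 1268 and 1417, 1546, 1599.9 and 1654, where the lowest RNAi library lay within the controls and the groups overlapped (log2 fold change 0.20 ± 0.0631, adjusted p = 0.00934), and without batch 3 or 4 or without the clk-1 RNAi libraries of batches 3 and 4 it was 0.13 to 0.18 and not called (adjusted p = 0.0945 to 0.196, against 0.00104 to 0.196 over the 14 alternatives).

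unc-32 was not called higher in any genotype. Its counts were 2724, 2617, 2801 and 2802 and 2485, 2267, 2234 and 2388 in eat-2, and 2246, 2491, 2472 and 2447 and 2042, 2155, 2117 and 1935 in raga-1, with all RNAi libraries below all controls in both (-0.22 ± 0.0459 and -0.23 ± 0.0459, adjusted p = 0.000216 and 4.91e-05), the latter not past the threshold after quantile normalization (adjusted p = 0.0631, range 3.71e-06 to 0.0631 over the 14 alternatives). In age-1 it read 2816, 2789, 2883 and 3015 and 2522, 2654, 2624 and 2701, a small fall without overlap (log2 fold change -0.13 ± 0.0459, adjusted p = 0.0382), and without batch 1, 2, 3 or 4 it was -0.15 to -0.12 and not called (adjusted p = 0.0524 to 0.153, against 0.00372 to 0.153 over the 14 alternatives). In clk-1 the libraries read 2715, 2710.4, 2689 and 2492 and 2409, 2748, 2397 and 2373, where the high RNAi library of batch 2 overlapped the controls (-0.10 ± 0.0459, adjusted p = 0.0814). vha-7 was not called in any mutant under RNAi, with changes of -0.15 in clk-1, -0.04 in age-1, -0.03 in raga-1 and -0.02 in eat-2.

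The remaining V0 genes, the rotor subunits c, c'' and d and the small subunit e (vha-17), rose in 5 of 6 cases in raga-1 and in clk-1, with medians of 0.30 and 0.27. The exception was vha-1, a subunit c gene, which fell in all 5 genotypes, as no other pump gene did. It read 1783, 1913, 1829 and 1891 in wild type on empty vector and 1455, 1528, 1529 and 1532 under RNAi. No RNAi library reached a control (log2 fold change -0.29 ± 0.0504, adjusted p = 4.29e-05). The falls were -0.34 ± 0.0504 in eat-2, -0.16 ± 0.0504 in clk-1, -0.20 ± 0.0504 in raga-1 and -0.15 ± 0.0504 in age-1, the last with overlapping groups (adjusted p = 0.0295). In age-1, without batch 2, 3 or 4 it was -0.17 to -0.09 and not called (adjusted p = 0.104 to 0.128, against 0.0129 to 0.128 over the 14 alternatives). The fall in raga-1 did not pass after quantile normalization, where adjusted p reached 0.205, the highest of the 14 alternatives (lowest 2.6e-05).

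The other subunit c genes gave other values. vha-3 read 2739, 2815, 2816 and 2598 in raga-1 on empty vector and 3985, 3768, 3732 and 3920.4 under RNAi, and 2295, 2333, 2434 and 2683 and 3141, 2779, 3833 and 3491 in clk-1. It was higher under RNAi without overlap in both (0.49 ± 0.0717 and 0.43 ± 0.0717, adjusted p = 2.77e-07 and 5.89e-06) and not called in wild type (-0.03), eat-2 (0.14) or age-1 (-0.01). vha-2, the most abundant pump gene per length, fell in wild type, from 6947, 7048, 6942 and 7047 to 6701, 6326, 6127 and 6044 (log2 fold change -0.15 ± 0.0408, adjusted p = 0.00582), and without batch 4 it was -0.13 and not called (adjusted p = 0.063, against 0.000169 to 0.063 over the 14 alternatives). It rose in raga-1 (0.16 ± 0.0408) and clk-1 (0.20 ± 0.0408). vha-1 and vha-2 lie 400 bases apart on the same strand and are known to share an operon, and vha-11 follows vha-3 after 892 bases in the same way.

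The V1 sector rose almost as a whole in raga-1 and clk-1, with 8 of 9 genes higher in each and medians of 0.30 and 0.35. The largest rise was in vha-10 (subunit G, WBGene00006919, chromosome I, 5609341 to 5610270). It read 3241, 3184, 3289 and 3084 in raga-1 on empty vector and 4855, 4761, 5230.4 and 4824 under RNAi, and 2657, 2708, 2754 and 3034 and 3801, 3868, 4378 and 4152 in clk-1. The groups were apart in both (0.62 ± 0.0621 and 0.54 ± 0.0621, adjusted p = 9.03e-11 and 8.52e-09). vha-10 also rose in eat-2 (0.28 ± 0.0621, adjusted p = 0.000603). Its rise in age-1 was called as well (0.23 ± 0.0621, adjusted p = 0.00825), where without batch 2 it was 0.20 and not called (adjusted p = 0.105, against 0.00155 to 0.105 over the 14 alternatives). The genes of the catalytic head, vha-13 and vha-12, rose by 0.37 and 0.30 in raga-1 and by 0.41 and 0.38 in clk-1. The accessory genes vha-19, which encodes the Ac45 protein, and vha-20 rose in the same mutants, by 0.20 and 0.37 in raga-1 and by 0.19 and 0.32 in clk-1.

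The genes of subunit H, vha-15 and vha-18, went in opposite directions under RNAi in raga-1 and clk-1. vha-18 (WBGene00018698, chromosome V, 8411775 to 8413482) read 683, 724, 759 and 759.9 in raga-1 on empty vector and 316, 394, 453 and 389 under RNAi. Its RNAi libraries were all far below the controls, at 53% of their mean (log2 fold change -0.92 ± 0.0866, adjusted p = 1.82e-11). vha-15, shown as the other gene of this subunit after its values were seen, read 2886, 3072, 3398 and 3196 and 3941, 4031, 4147 and 3928, all RNAi libraries above all controls (log2 fold change 0.36 ± 0.0442, adjusted p = 1e-08). In clk-1 vha-18 read 838, 875, 810.3 and 742 and 659, 724, 658 and 629, a fall without overlap (log2 fold change -0.29 ± 0.0866, adjusted p = 0.00637), though without the clk-1 RNAi libraries of batches 3 and 4 it was -0.24 and not called (adjusted p = 0.0903, against 0.000215 to 0.0903 over the 14 alternatives). vha-15 rose there (0.26 ± 0.0442, adjusted p = 7.79e-06). In eat-2 vha-18 read 678, 581, 711 and 660.5 and 603, 491, 553 and 545 with overlapping groups (log2 fold change -0.26 ± 0.0866, adjusted p = 0.016), and without batch 3 or 4 it was -0.23 and -0.26 and not called (adjusted p = 0.0829 and 0.0666, against 0.000248 to 0.0829 over the 14 alternatives). vha-18 was not called in wild type (-0.16, adjusted p = 0.178) or age-1 (-0.18, adjusted p = 0.132). vha-15 was not called in wild type, eat-2 or age-1. In wild type it read 2859, 2761, 2797 and 2603 on empty vector and 2590, 2548, 2619 and 2504 under RNAi, with overlapping groups. Exons of vha-18 overlap those of F52E1.2 on the opposite strand; the library kit keeps strand, but whether the counts used it is not given in the sources used here.

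**Figure D3:**
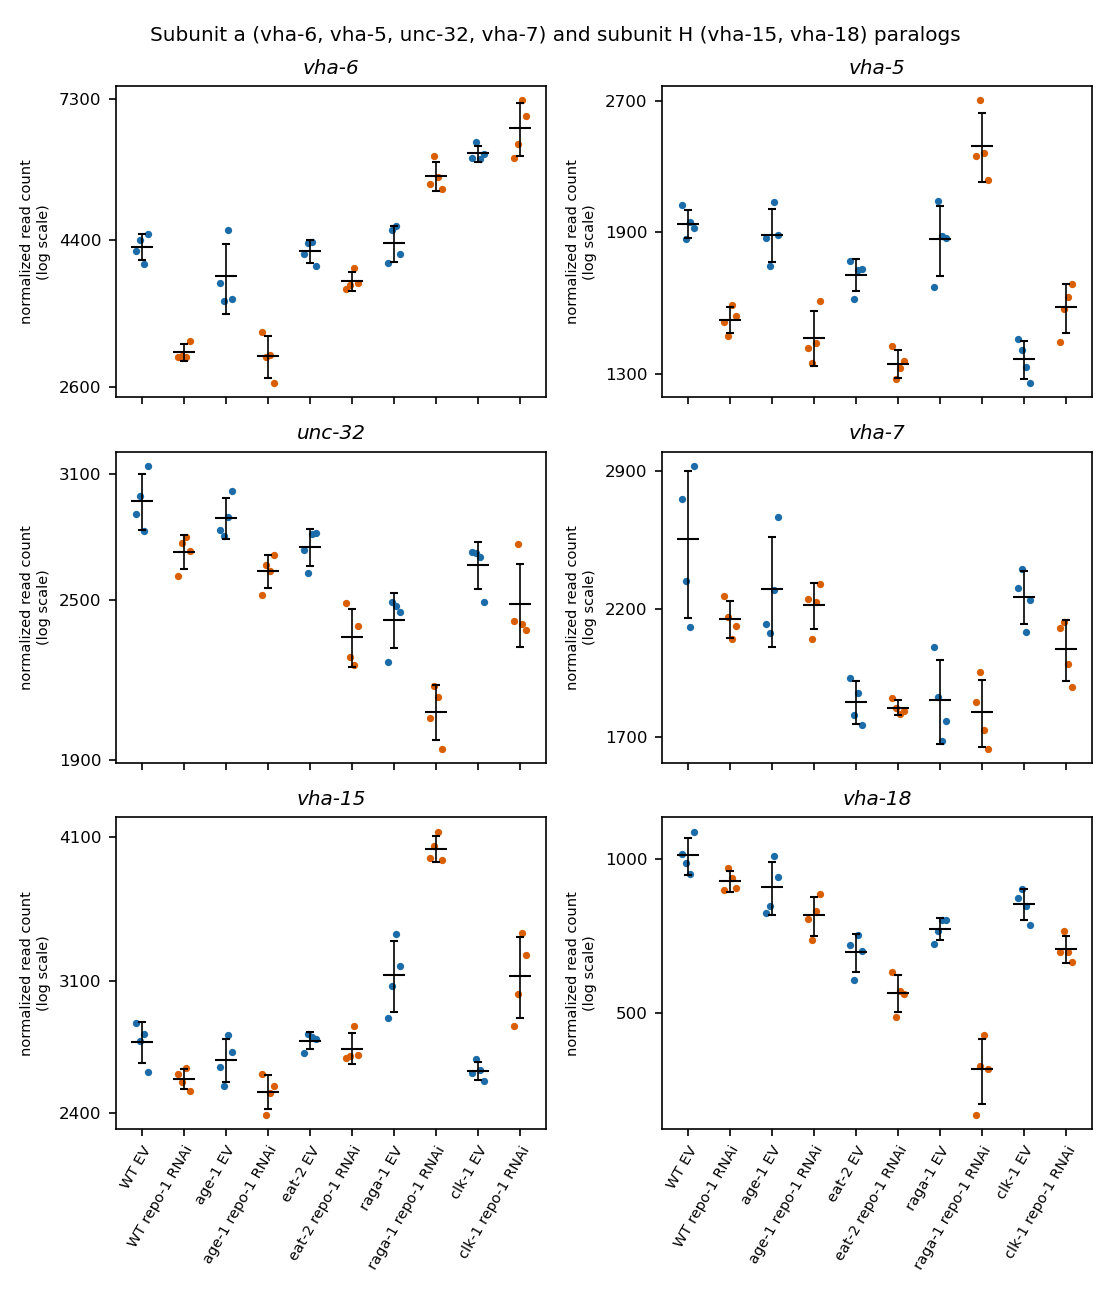
Normalised read counts of 6 pump genes in each library (points, log axis) by genotype, blue for empty vector and orange for repo-1 RNAi, with the group mean and SD. vha-6 and vha-5 are lower under RNAi in wild type and age-1 and higher in raga-1, and vha-18 is lowest in raga-1 under RNAi, where vha-15 is highest.

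The nuclease gene nuc-1 (WBGene00003828, chromosome X, 9539905 to 9542329), whose DNase II degrades the DNA of dead cells and of ingested bacteria, changed in both directions. It read 1260.1, 1250.5, 1299 and 1257 in wild type on empty vector and 1034, 942, 1043 and 1001 under RNAi, and 1333, 1318, 1407 and 1563 and 992, 1021, 1081 and 1181 in eat-2. RNAi libraries were below controls without overlap in both (-0.33 ± 0.0688 and -0.39 ± 0.0688, adjusted p = 0.00045 and 2.46e-05). In raga-1 it read 1195, 1056, 994 and 1034 and 1582, 1667, 1532 and 1612, and in clk-1 409.9, 381, 374 and 471 and 510.0, 535, 589 and 547. There the RNAi libraries were above the controls without overlap (0.58 ± 0.0688 and 0.42 ± 0.0688, adjusted p = 3.82e-09 and 5.86e-06). Levels in age-1 were 1193, 1102, 1378 and 1171 and 1151, 1052, 1066 and 1036, overlapping and not called (-0.17 ± 0.0688, adjusted p = 0.0809), although edgeR did call the fall (adjusted p = 0.0334, range 0.0334 to 0.441 over the 14 alternatives).

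The mutations themselves, compared on empty vector, gave their largest protease median in clk-1. All 20 proteases were called, 13 higher and 7 lower, while 1 pump gene was higher and 10 lower, where 58.3% of all tested genes were called (27.8% higher, 30.4% lower). The protease median was 0.86 (0.82, 0.65, 0.79 and 0.88 in batches 1 to 4) and the pump median -0.12 (-0.14, -0.14, -0.12 and -0.03), with -0.01 over all tested genes. Pump values depended on the scaling, with 3 genes higher and 3 lower and a median of 0.03 after quantile normalization. Intestine markers rose in 3 of 15 and fell in 6, with summed levels of 17688 to 19244 in wild type and 13119 to 16027 in clk-1. The excretory canal list had 3 of 7 higher and 2 lower (median 0.31, sums 2438 to 2556 against 2435 to 2598). The epidermis list had 2 of 6 higher and 2 lower (median -0.23, sums 20884 to 24632 against 17269.6 to 19295). The oocyte and germline list had 1 of 16 higher and 10 lower (median -0.23, sums 212977 to 225504 against 185370.0 to 203609). The sperm list had 3 of 6 lower (median -1.37, sums 71.1 to 142 against 51.6 to 64.1). The neuron list had 6 of 11 higher (median 0.35, sums 4322 to 4458 against 6031 to 6255). The body wall muscle list had 1 of 7 higher and 6 lower (median -0.38, sums 98135 to 114723 against 74504 to 84262). The part of these markers was not tested.

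asp-8 (WBGene00019105, chromosome V, 3024549 to 3027931) had the largest rise of any of these genes. It read 205, 245, 254 and 221 in wild type and 1959 ± 408 in clk-1. Every clk-1 library lay far above every wild type library, and those of batches 3 and 4 were highest (8.34-fold, log2 fold change 3.06 ± 0.11, adjusted p = 1.43e-22). asp-14 had the largest fall, from 454, 507, 443 and 629 to 84.6 ± 10.3, without overlap (5.92-fold lower, log2 fold change -2.57 ± 0.114, adjusted p = 5.28e-20). cpr-3 went from 135, 188, 133 and 175 to 557, 576, 498 and 477 (log2 fold change 1.75 ± 0.205, adjusted p = 4.21e-09), and cpr-4 from 5309 ± 358 to 9921 ± 1329 (log2 fold change 0.90 ± 0.134, adjusted p = 5.97e-07), each without overlap. Abundant aspartic proteases rose too, with asp-1 going from 30948 ± 2790.1 to 55666 ± 4529 (log2 fold change 0.85 ± 0.0773, adjusted p = 1.32e-11), asp-5 higher by 1.42 and asp-6 by 1.12. asp-12 read 32.7, 147, 28.6 and 107 and 152 ± 11.2, where the uneven wild type libraries overlapped clk-1 (log2 fold change 1.27 ± 0.337, adjusted p = 0.0015), and without batch 3 it was 0.87 and not called (adjusted p = 0.0627, against 0.000108 to 0.0627 over the 14 alternatives).

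Falls in clk-1 included cpr-1, from 6380.2 ± 1889 to 3752 ± 131 without overlap (log2 fold change -0.72 ± 0.17, adjusted p = 0.00046), asp-13, from 2221 ± 305 to 1382 ± 57.4 (log2 fold change -0.68 ± 0.102, adjusted p = 6.6e-07), cpr-6 (-0.70 ± 0.0518), and cathepsins cpl-1 (-0.38 ± 0.0626) and cpz-1 (-0.40 ± 0.107). asp-4 stood at 5899 ± 164 in wild type and 5391 ± 168 in clk-1, and its small fall (log2 fold change -0.13 ± 0.0495, adjusted p = 0.0238) became 0.03 in the other direction after quantile normalization (adjusted p = 0.571, range over the 14 alternatives 0.0123 to 0.571). For asp-4 in clk-1, without batch 1 or 2 it was -0.13 and -0.13 and not called (adjusted p = 0.0729 and 0.0673, against 0.0123 to 0.571 over the 14 alternatives). nuc-1 read 1267 ± 22.1 in wild type and 409 ± 44.4 in clk-1, at 32.3% of the wild type mean (log2 fold change -1.63 ± 0.0688, adjusted p = 1.16e-20).

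In the pump of clk-1, vha-6 was the only gene to rise, from 4298 ± 204 in wild type to 6002 ± 172, with all clk-1 libraries above all wild type libraries (log2 fold change 0.48 ± 0.0636, adjusted p = 4.83e-08). vha-5, in contrast, fell from 1946 ± 74.3 to 1352 ± 69.8, also without overlap (log2 fold change -0.53 ± 0.0631, adjusted p = 7.22e-09). unc-32 (-0.16 ± 0.0459) and vha-18 (-0.32 ± 0.0866) fell too. For unc-32, without batch 4 it was -0.10 and not called (adjusted p = 0.106, against 0.00103 to 0.649 over the 14 alternatives). For vha-18, without batch 4 it was -0.22 and not called (adjusted p = 0.0854, against 0.0004 to 0.0854 over the 14 alternatives). The other 7 falls were small, from -0.28 in vha-11 to -0.11 in vha-20.

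On empty vector raga-1 gave different counts by protease family. In total 11 proteases were higher and 6 lower than in wild type, and 9 pump genes higher and 3 lower, against 46.1% of all tested genes called (19.7% higher, 26.4% lower). Of the cathepsin B genes 4 of 6 fell and 1 rose (median -1.03), of the aspartic proteases 7 of 11 rose and 2 fell (median 0.53), and all 3 cathepsin L and Z genes rose (median 0.50). Without the raga-1 library of batch 1, 11 proteases were higher and 5 lower, and 8 and 3 pump genes. Intestine markers rose in 5 of 15 and fell in 4, with summed levels of 17688 to 19244 and 15969.8 to 20121. The excretory canal list had 2 of 7 higher and 2 lower (median -0.08, sums 2438 to 2556 against 2179 to 2439). The oocyte and germline list had 2 of 16 higher and 6 lower (median -0.09, sums 212977 to 225504 against 206064 to 232303). The neuron list had 7 of 11 higher (median 0.49, sums 4322 to 4458 against 5943 to 11995). The sum of 11995 was that of the raga-1 library of batch 1, where unc-31 alone read 5695. In batches 2 to 4 of raga-1 the sums were 5943 to 5983. The body wall muscle list had 6 of 7 higher (median 0.44, sums 98135 to 114723 against 132349 to 156405). Their part was not tested.

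cpr-1 fell most, from 6380.2 ± 1889 in wild type to 2061 ± 415 in raga-1, with no overlap (log2 fold change -1.60 ± 0.17, adjusted p = 1.3e-09). cpr-5 went from 7409.9 ± 449 to 2874 ± 282 (log2 fold change -1.37 ± 0.128, adjusted p = 7.8e-11) and cpr-4 from 5309 ± 358 to 2468 ± 289 (log2 fold change -1.11 ± 0.134, adjusted p = 2.34e-08), all without overlap, and cpr-8 fell as well (-0.96 ± 0.107). The rises were led by asp-14, from 508 ± 85.5 to 1938 ± 132 (3.84-fold, log2 fold change 1.94 ± 0.114, adjusted p = 5.88e-16), and asp-17, from 74, 70.8, 85.7 and 53.7 to 197 ± 25.4 (log2 fold change 1.47 ± 0.187, adjusted p = 6.52e-08). Both groups were apart in every library. asp-4 read 8766 ± 428 in raga-1, all above wild type, with batch 1 the highest (log2 fold change 0.57 ± 0.0495, adjusted p = 1.27e-11), and cpz-2 read 1037 ± 89.1 against 575, 534, 588 and 496 (log2 fold change 0.92 ± 0.0699, adjusted p = 5.26e-13). asp-13 fell to 1750.3 ± 62.7 (log2 fold change -0.33 ± 0.102, adjusted p = 0.00743), and without batch 1 or 3 it was -0.25 and -0.28 and not called (adjusted p = 0.123 and 0.0802, against 0.00105 to 0.123 over the 14 alternatives).

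The pump changed little in raga-1 on empty vector, with a median of 0.09. Its 3 falls were in vha-18, from 1023, 982, 934 and 1132 to 732 ± 36.4 (log2 fold change -0.47 ± 0.0866, adjusted p = 2.94e-05), vha-7, from 2530.4 ± 372 to 2038, 1843, 1686 and 1756 (log2 fold change -0.46 ± 0.0735, adjusted p = 3.88e-06), and unc-32 (-0.29 ± 0.0459, adjusted p = 2.44e-06). Each of these was apart from wild type in every library. The 9 rises lay between 0.10 in vha-19 and 0.26 in vha-20, and 6 of them were V1 genes.

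In eat-2 on empty vector 9 proteases were higher and 5 lower, with 2 pump genes higher and 4 lower, against 57% of all tested genes called (27.2% higher, 29.8% lower). The protease median was 0.07. The pump count depended on the setting, at 8 higher and 2 lower after quantile normalization, 3 and 3 by edgeR, and 3 in all without batch 1, 2 or 4; the median moved from -0.01 to 0.11 with quantile normalization, which itself moved the median of all tested genes from 0.00 to -0.10. Intestine markers rose in 9 of 15 and fell in none, with summed levels of 17688 to 19244 in wild type and 22194 to 22984 in eat-2. The excretory canal list had 5 of 7 higher (median 0.47, sums 2438 to 2556 against 2893 to 2960.5). The epidermis list had 2 of 6 higher and 2 lower (median 0.71, sums 20884 to 24632 against 22073 to 22342). The oocyte and germline list had 15 of 16 lower (median -0.29, sums 212977 to 225504 against 182796 to 189185). The neuron list had 10 of 11 higher (median 0.55, sums 4322 to 4458 against 5887 to 6449.7). The part of these markers was not tested.

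asp-14 rose most in eat-2, from 508 ± 85.5 to 1466 ± 116, every eat-2 library above every wild type library (2.91-fold, log2 fold change 1.54 ± 0.114, adjusted p = 1.44e-13). cpr-3 went from 158 ± 27.9 to 406, 393, 464 and 354 (log2 fold change 1.36 ± 0.205, adjusted p = 7.02e-07) and asp-1 from 30948 ± 2790.1 to 43727, 48139.8, 46550.1 and 44671 (log2 fold change 0.57 ± 0.0773, adjusted p = 1.22e-07), again apart. asp-6 rose by 1.09 and cpz-2 by 0.83, and cpr-4 read 8025 ± 559.6 against 5309 ± 358 (log2 fold change 0.60 ± 0.134, adjusted p = 0.000281). asp-4 fell most, from 5899 ± 164 to 3530.3, 3259.8, 3538 and 3953, without overlap (log2 fold change -0.73 ± 0.0495, adjusted p = 1.78e-14), and asp-13 fell to 1547 ± 214 (log2 fold change -0.52 ± 0.102, adjusted p = 4.56e-05). asp-8 read 186 ± 13.6 against 231 ± 22.2, a small fall without overlap (log2 fold change -0.31 ± 0.11, adjusted p = 0.0165), and without batch 2 or 3 it was -0.23 and -0.28 and not called (adjusted p = 0.154 and 0.079, against 4.51e-05 to 0.154 over the 14 alternatives). In the pump, vha-18 read 658 ± 55 against 1018 ± 84.6 (log2 fold change -0.63 ± 0.0866, adjusted p = 1.5e-07), and vha-7 1916, 1779, 1859 and 1742 against 2530.4 ± 372 (log2 fold change -0.46 ± 0.0735, adjusted p = 1.98e-06), both apart. vha-5 fell by less (-0.20 ± 0.0631) and did not pass after quantile normalization (adjusted p = 0.244, range 0.000449 to 0.244), and unc-32 fell as well (-0.11 ± 0.0459), for which without batch 1, 2 or 4 it was -0.12 to -0.09 and not called (adjusted p = 0.0541 to 0.155, against 0.0117 to 0.84 over the 14 alternatives).

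age-1 on empty vector gave the fewest calls of the 4 mutants. Of the proteases 5 were higher and 1 lower, against 8.48% of all tested genes called (4.76% higher, 3.72% lower), and the count was 3 without batch 1 or without batch 3, 3 higher and 2 lower after quantile normalization and 5 and 2 by edgeR. The body wall muscle list had 6 of 7 higher (median 0.20, sums 98135 to 114723 against 118881 to 137930.0). Their part was not tested. No pump gene was called by limma, where 2 had an unadjusted p under 0.05, and edgeR called 0 as well. asp-17 fell from 71 ± 13.2 to 26, 16.6, 29.3 and 26.3, every age-1 library below every wild type library (log2 fold change -1.50 ± 0.187, adjusted p = 2.68e-07). asp-8 rose from 231 ± 22.2 to 391, 392, 496 and 525, also apart (log2 fold change 0.95 ± 0.11, adjusted p = 6.32e-08). asp-14 rose from 508 ± 85.5 to 706 ± 55.8 (log2 fold change 0.48 ± 0.114, adjusted p = 0.00416), and without batch 3 it was 0.37 and not called (adjusted p = 0.0607, against 0.000368 to 0.0607 over the 14 alternatives). cpr-1 read 7603, 7427, 12366 and 8903 in age-1, where batch 3 was high and the groups overlapped (log2 fold change 0.53 ± 0.17, adjusted p = 0.0466), and without batch 1, 3 or 4 it was 0.24 to 0.63 and not called (adjusted p = 0.078 to 0.448, against 0.00642 to 0.448 over the 14 alternatives). asp-3 (0.26 ± 0.073) and asp-4 (0.16 ± 0.0495) were higher as well. For asp-4, without batch 1, 2 or 4 it was 0.14 to 0.16 and not called (adjusted p = 0.0831 to 0.21, against 0.00898 to 0.21 over the 14 alternatives).

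Whether RNAi acted differently in a mutant than in wild type was tested as the RNAi effect in the mutant minus that in wild type. In raga-1 19 of 20 proteases had a positive difference and 0 a negative one, and of the pump genes 16 and 1, where 55.6% of all tested genes were called (28.4% positive, 27.2% negative). The medians were 0.75 for proteases, 0.36 for pump genes and 0.12 for all tested genes, the last -0.05 after quantile normalization, which gave 16 and 0 for proteases and 19 and 1 for pump genes. Without the raga-1 empty vector library of batch 1 there were 18 positive proteases and 16 positive pump genes. Intestine markers were positive in 13 of 15 (median 0.66) and neuron markers in 10 of 11 (0.71). Body wall muscle markers were positive in 7 of 7 (0.79). Oocyte and germline markers were negative in 15 of 16 (median -0.61). Excretory canal markers were positive in 4 of 7 and negative in 1, and epidermis markers in 2 of 6 and 1. Sperm markers were positive in 2 of 6 and coelomocyte markers in 2 of 3. In clk-1 15 proteases and 16 pump genes were positive and none negative, against 23.6% of all tested genes (13.7% positive, 9.9% negative), with medians of 0.53 and 0.37 and 0.03 over all tested genes. With the clk-1 RNAi libraries of batches 1 and 2 alone 11 proteases and 15 pump genes were positive, and with those of batches 3 and 4 alone 17 and 16. In clk-1, intestine markers were positive in 6 of 15 (median 0.47) and neuron markers in 6 of 11 (0.39). Body wall muscle markers were positive in 6 of 7 (0.57) and sperm markers in 4 of 6. Oocyte and germline markers were positive in 4 of 16 and negative in 4, and epidermis markers in 2 of 6 and 2. Excretory canal markers were positive in 1 of 7 and negative in 1. The part of these markers in either difference was not tested.

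The largest difference in raga-1 was that of cpr-4, at 1.96 ± 0.19 (adjusted p = 2.18e-10), where the RNAi effect in wild type was itself -1.49. Next were cpr-1 at 1.28 ± 0.24, cpr-5 at 1.26 ± 0.181, asp-17 at 1.22 ± 0.265 and cpr-3 at 1.13 ± 0.289. Cathepsin B genes had a median of 1.2 and aspartic proteases one of 0.60. Small differences were called for asp-13 (0.34 ± 0.144, adjusted p = 0.045) and asp-8 (0.41 ± 0.156, adjusted p = 0.0245). For asp-13, without batch 1 or 3 or without the raga-1 empty vector library of batch 1 it was 0.25 to 0.31 and not called (adjusted p = 0.0804 to 0.27, against 0.0148 to 0.27 over the 14 alternatives). For asp-8, without batch 2 or 3 it was 0.28 and 0.44 and not called (adjusted p = 0.21 and 0.0543, against 0.0111 to 0.21 over the 14 alternatives). In the pump, vha-6 (0.89 ± 0.0899, adjusted p = 5.4e-10) and vha-5 (0.73 ± 0.0893, adjusted p = 2.49e-08) led, and vha-18 was the only negative gene (-0.76 ± 0.123, adjusted p = 3.58e-06).

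In clk-1 the largest differences were those of asp-12 (1.97 ± 0.477, adjusted p = 0.00216), asp-14 (1.49 ± 0.161, adjusted p = 1e-08), cpr-1 (1.39 ± 0.24) and cpr-5 (1.12 ± 0.181), and in the pump vha-6 (0.67 ± 0.0899, adjusted p = 6.35e-07) and vha-5 (0.57 ± 0.0893, adjusted p = 7.95e-06). The RNAi effect on vha-6 was itself -0.54 in wild type and not called in clk-1. The asp-12 difference includes uneven wild type controls (32.7, 147, 28.6 and 107). nuc-1 differed in raga-1 (0.92 ± 0.0973) and in clk-1 (0.75 ± 0.0973). The clk-1 differences of asp-1 (0.41 ± 0.109), asp-17 (0.84 ± 0.265), cpr-4 (0.70 ± 0.19) and cpz-2 (0.36 ± 0.0989) did not pass in every left-out fit. For asp-1, without the clk-1 RNAi libraries of batches 3 and 4 it was 0.27 and not called (adjusted p = 0.105, against 9.44e-05 to 0.105 over the 14 alternatives). For asp-17, without batch 2 or 3 or without the clk-1 RNAi libraries of batches 3 and 4 it was 0.48 to 0.86 and not called (adjusted p = 0.0653 to 0.349, against 0.00111 to 0.349 over the 14 alternatives). For cpr-4, without batch 3 or without the clk-1 RNAi libraries of batches 3 and 4 it was 0.58 and 0.51 and not called (adjusted p = 0.0726 and 0.0944, against 4.72e-06 to 0.0944 over the 14 alternatives). For cpz-2, without batch 3 or without the clk-1 RNAi libraries of batches 3 and 4 it was 0.28 and 0.22 and not called (adjusted p = 0.0963 and 0.145, against 3.54e-05 to 0.145 over the 14 alternatives).

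eat-2 differed from wild type in few of these genes. The called differences were positive in cpr-5 (0.62 ± 0.181, adjusted p = 0.0212), asp-4 (0.42 ± 0.07, adjusted p = 6.53e-05) and cpr-6 (0.26 ± 0.0733, adjusted p = 0.0151), and in vha-6 (0.39 ± 0.0899, adjusted p = 0.00294) among pump genes, where 10.7% of all tested genes were called (3.98% positive, 6.73% negative). The protease count was 1 without batch 2 or without batch 3. For cpr-5, without batch 2, 3 or 4 it was 0.58 to 0.62 and not called (adjusted p = 0.0676 to 0.139, against 0.000193 to 0.139 over the 14 alternatives). In age-1 limma called 0 proteases and 0 pump genes, with 1 of each at an unadjusted p under 0.05, edgeR called 0 of both, and 0.00811% of all tested genes, a single gene, was called. Averaged over the 5 genotypes, RNAi raised 10 proteases and lowered 4, and raised 13 pump genes and lowered 6, against 65.6% of all tested genes called (31.4% higher, 34.2% lower), an average over directions that differed between genotypes.

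**Figure D4:**
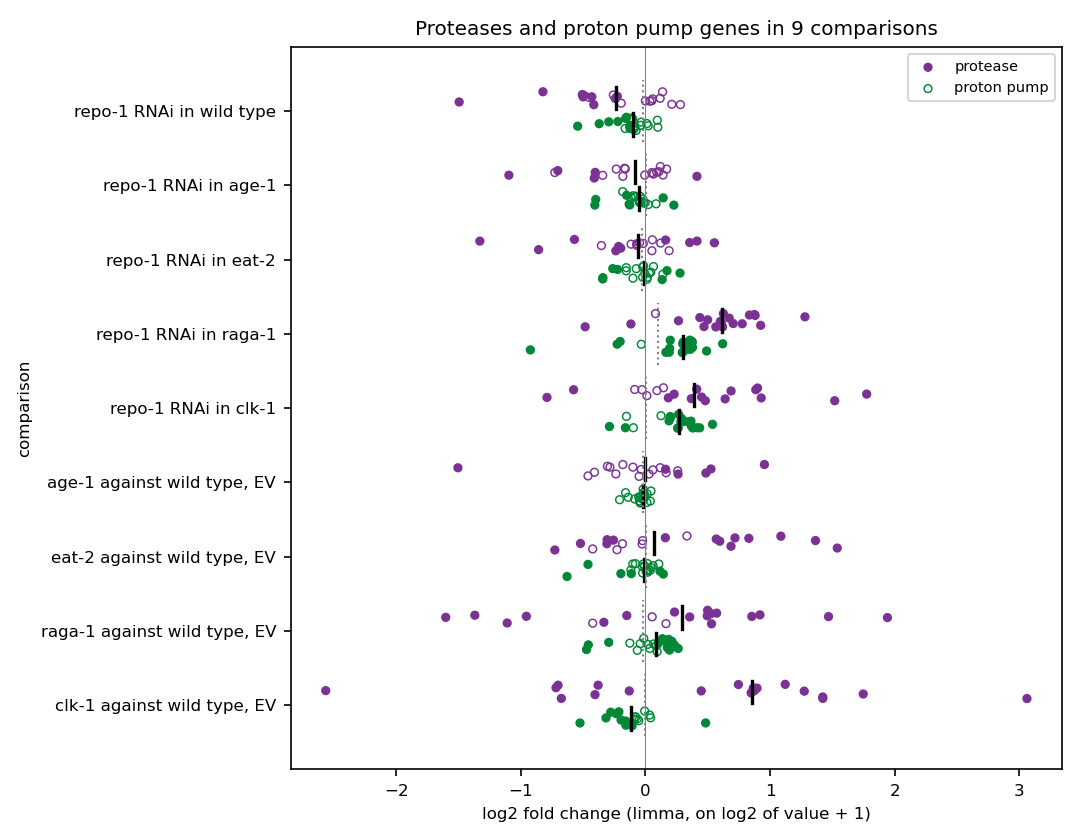
Log2 fold changes of the proteases (purple) and pump genes (green) in 9 comparisons; filled points were called by limma at an adjusted p under 0.05, black bars are the medians of each class and grey dotted lines the medians of all tested genes. Both classes lie mostly above the line under RNAi in raga-1 and clk-1, and in clk-1 on empty vector proteases spread from -2.57 to 3.06 while pump genes stay near 0.

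Most proteases lay on a single chromosome and the pump genes did not. Of the 27 proteases 21 (77.8%) lie on chromosome V, which holds 24.7% of all genes in the table, while the 21 pump genes lie on 6 chromosomes. asp-6, asp-12 and asp-5 sit side by side, with gaps of 272 and 328 bases. Of these, asp-5 and asp-6 were abundant and changed by 1.42 and 1.12 in clk-1 on empty vector. asp-12, at low level, changed by 1.27 there, which was not called without batch 3. Under RNAi asp-5 and asp-6 were called higher in 2 genotypes each and asp-12 in 1. cpr-5 and cpr-8 lie 565 bases apart on opposite strands. They fell in wild type under RNAi by 0.43 and 0.41 on the log2 scale. In raga-1 on empty vector they fell by 1.37 and 0.96. In clk-1 under RNAi cpr-5 was called higher and cpr-8 was not called. Whether neighbouring genes changed together was not tested. asp-8 and asp-7 are 353 bases apart on the same strand, and both had their highest group means in clk-1, where asp-7 still stood at no more than 3.97 normalised counts per kilobase. asp-17, asp-16, asp-15 and asp-1 follow each other on the same strand, with the untested asp-16 and asp-15 between a gene of low level and the most abundant protease. Exons of asp-2, asp-4, cpz-2, vha-5, vha-17 and vha-19 overlap a protein-coding gene on the opposite strand, and those of vha-2 and vha-13 one on the same strand, so single reads could be assigned differently there.

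Other genes of the lysosome gave mixed counts as well. A list of 57 further genes (membrane proteins, lipid and sugar hydrolases, carboxypeptidases, trafficking factors and the regulators hlh-30 and mxl-3) had 55 tested members. In wild type under RNAi, where 23% of all tested genes were called, 2 rose and 21 fell (median -0.15), led by the battenin gene cln-3.1 (-0.91 ± 0.291) and the cathepsin A genes ctsa-4.2 (-0.91 ± 0.0866) and ctsa-4.1 (-0.86 ± 0.129). The counts of higher and lower members were 21 and 15 in raga-1, 5 and 21 in eat-2, 1 and 17 in age-1 and 12 and 16 in clk-1, beside 71.1%, 37.5%, 20.9% and 46.3% of all tested genes called in either direction. Largest were the falls of the palmitoyl thioesterase ppt-1 in eat-2 (-1.13 ± 0.185) and of the glucocerebrosidase gba-4 in age-1 (-1.07 ± 0.146), and the rises of the cholesterol transporter ncr-2 in raga-1 (1.65 ± 0.522) and of the sphingomyelinase asm-2 in clk-1 (2.02 ± 0.169). Genes of this list were named without the minimum mean of 100 used for the proteases and the pump. Means over all libraries were only 19.7 for ncr-2, 37.6 for cln-3.1 and 49.2 for ppt-1. On empty vector 19 members were higher and 19 lower in clk-1, with the sphingomyelinase asm-3 at -4.19 ± 0.362 and the glucocerebrosidase gba-1 at 2.00 ± 0.119. They were 17 and 17 in raga-1, 21 and 17 in eat-2 and 6 and 6 in age-1, beside 58.3% of all tested genes in clk-1, 46.1% in raga-1, 57% in eat-2 and 8.48% in age-1. The interaction with raga-1 was positive for 30 and negative for 7 members (median 0.43), and that with clk-1 for 15 and 2 (median 0.17), beside 55.6% and 23.6% of all tested genes called.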

How the data were processed

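Whole-body RNA of day 1 adults was sequenced in 40 libraries, 10 groups of 4, after extraction with Qiagen miRNeasy and preparation with a stranded Roche Kapa mRNA kit, per the labels' protocols. The deposited signal holds counts per gene that were scaled by a single factor in each library, as the values show: divided by its smallest value above 0, 100% of the values of each column were whole numbers within 0.01, taken as reads. In 2 columns that smallest value was within 0.01 of 1, so scaled and unscaled values are nearly alike there. The submitters' processing notes list Salmon 0.14.2, STAR, DESeq2, FastQC 0.11.8 and MultiQC and the build WBcel235; their roles, and whether counting used strand, are not given in the sources used here. Depth was 7.43 to 40.8 M recovered reads. At a mean of 10 a library holds few reads of a gene, so low genes are measured less precisely.

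Genes with a mean of at least 10 (12327 of 20956) were tested with limma 3.58.1 in R 4.3.3 on log2(value + 1), with 1 mean per group, a variance trend and 14 comparisons, and p-values were adjusted by the Benjamini-Hochberg method within each. The count test used edgeR 4.0.16 on recovered reads and called 3019 genes under RNAi in wild type and 8764 in raga-1, where limma called 2839 and 8766. The interaction is the RNAi effect in a mutant minus that in wild type. Gene positions, exon lengths and overlaps came from the Ensembl 115 annotation of WBcel235, in which all 49 symbols were current. No sequences are shown. The lists are of intestine, excretory canal, epidermis, germline, sperm, neuron, body wall muscle, coelomocyte and other lysosomal genes. Members and lists were chosen with earlier results of these data known.

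Values in every library are given for the 2 proteases and 2 pump genes with the largest called change in each comparison (mean of at least 100), the subunit a paralogs, nuc-1 and the most abundant gene of each class per length. Alternatives were a pseudocount of 5, no filter, edgeR, quantile normalization, the replicate block, each replicate number left out, the raga-1 RNAi library with another date left out and array quality weights. Another 3, chosen after seeing the data, left out the clk-1 RNAi libraries of batches 3 and 4, those of batches 1 and 2, or the raga-1 empty vector library of batch 1. The labels give the replicate number as a batch, which pairs the groups: residuals correlated at a mean r of 0.0522 over 180 library pairs of the same number and -0.0171 over 540 pairs of different numbers.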

Additional observations from a re-analysis of the deposited data

Results flagged for a closer look

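In 15 of 220 groups of 4 libraries (6.82%, where chance gives about 1 in 20) the highest or lowest value stood apart from the other 3. Of these, 3 were in the raga-1 empty vector library of batch 1, where asp-4 (9408) and cpr-4 (2897) were the highest of their group and asp-13 (1656) the lowest. That library also had the lowest correlation with its group. In wild type under RNAi, asp-1 was highest in batch 1 (33255), vha-1 lowest in batch 1 (1455), asp-13 lowest in batch 3 (1229.5) and vha-6 highest in batch 4 (3074). In batch 1, asp-1 was lowest in eat-2 under RNAi (42491), asp-12 lowest in age-1 under RNAi (19.9), asp-17 highest in raga-1 under RNAi (657) and cpz-2 highest in age-1 on empty vector (709). unc-32 was lowest in batch 4 of clk-1 on empty vector (2492) and highest in batch 2 of clk-1 under RNAi (2748). In age-1 under RNAi, asp-8 was highest in batch 3 (502) and vha-1 lowest in batch 4 (1382).

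The RNAi effect differed from that in wild type, as a tested difference of log2 fold changes in the limma fit, in cpr-5 (0.62), asp-4 (0.42) and vha-6 (0.39) for eat-2. For raga-1 these were cpr-4 (1.96), cpr-1 (1.28), vha-6 (0.89) and vha-18 (-0.76), and for clk-1 asp-12 (1.97), asp-14 (1.49), vha-6 (0.67) and vha-5 (0.57). They are the 2 proteases and 2 pump genes with the largest called difference in each mutant at a mean of at least 100, where that many were called.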

How the results depend on the processing

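Of the counts of called proteases and pump genes over 14 comparisons, 364 values under the alternatives lay within 1.5 times the reported count and 28 did not. With array quality weights, pump calls numbered 13 under RNAi in wild type (reported 8), 12 in eat-2 (7), 11 in age-1 (7), 1 in age-1 on empty vector (0) and 6 in the eat-2 interaction (1), and protease calls 9 under RNAi in age-1 (5), 11 in age-1 on empty vector (6) and 7 in the eat-2 interaction (3). Pump calls under RNAi in wild type were 5 without the filter and 5 by edgeR. Quantile normalization gave 10 pump calls in eat-2 (6) and 6 in clk-1 (11) on empty vector. With each replicate number left out in turn, pump calls ranged from 3 to 6 under RNAi in wild type, 4 to 8 in eat-2 and 2 to 5 in age-1, from 3 to 6 in eat-2 and 0 to 2 in age-1 on empty vector, and protease calls from 5 to 9 under RNAi in wild type, 3 to 5 in age-1 on empty vector and 1 to 3 in the eat-2 interaction. In age-1, the 2 pump calls on empty vector came with batch 3 removed, and the 2 under RNAi with batch 2 removed. The cause of these shifts was not tested. Fits that leave libraries out differ from the reported fit both in the number of libraries and in which ones they hold.

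Of 179 single-gene values, 36 did not pass under at least 1 alternative. The reversed one was asp-4 in clk-1 on empty vector, at 0.033 after quantile normalization (reported -0.13). The replicate block gave 9 protease and 8 pump calls under RNAi in wild type and 19 and 20 in raga-1, changed no single-gene call and moved no count by more than 1.5 times. The alternatives chosen after seeing the data moved no count by more than 1.5 times. The 7 untested proteases had few reads at the depth of these libraries, and the reason was not tested. Small changes of pump genes lie near the spread between libraries.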

Other observations

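Among the neuron markers, unc-31 was chosen after its values were seen. It read 5695 normalised counts in the raga-1 empty vector library of batch 1, against 83, 57.8 and 60.2 in batches 2 to 4. In wild type under RNAi it read 1675 in batch 2, against 48.1, 58.5 and 55.4 in batches 1, 3 and 4. In the other 38 libraries it was at most 155. The raga-1 library is the one whose cpr-4, asp-4 and asp-13 values stood apart from its group.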
